A study of Mus musculus with 12 samples.

Results

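CD8+ T cells that lacked asGM1 at their surface were compared between Panc02 tumours treated with an anti-PD-1 antibody and Panc02 tumours treated with an isotype control. The members are the 6 libraries whose labels give the asGM1-negative population, 3 labelled isotype ctrl and 3 labelled anti-PD-1, out of 12 libraries in the series. No measured value entered the choice. All 6 came from wild type C57BL/6J mice bearing tumours of Panc02, a mouse pancreatic cancer line, and from cells sorted as DAPI-, CD45.2+, CD8+ and asGM1-. The other 6 libraries hold the asGM1-positive cells under the same treatments. The antibody clone, dose and schedule, the age of the mice and the time of sorting are not given in the sources used here. Libraries are numbered 1 to 3 in each group, and no label says that each came from a separate mouse. The p-values therefore rest on library-to-library spread that could be technical. In the asGM1-negative cells, the comparison asks which transcripts differ under PD-1 blockade.

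PD-1, encoded by Pdcd1, is an inhibitory receptor that activated T cells place on their surface. Its ligand PD-L1 dampens signalling from the T cell receptor, and an antibody to PD-1 blocks that contact. asGM1, or asialo-GM1, is a neutral glycosphingolipid best known as a surface marker of natural killer cells, and subsets of activated CD8+ T cells carry it too.

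The 6 libraries held 58504509 to 73206178 counts, and 18657 of the 56941 genes in the table passed the expression filter. Levels are given in CPM, counts relative to the TMM-scaled library total, for libraries 1, 2 and 3 of a group in that order, and a gene is said to rise or fall when edgeR's quasi-likelihood test gave a Benjamini-Hochberg adjusted p under 0.05 over all 18657 genes. CPM is not divided by transcript length, so levels are compared between libraries for 1 gene and not between genes. RNA of the CD8 lineage was present in every library. Cd8a, a chain of the CD8 coreceptor, measured 2166, 2046 and 2121 CPM under isotype and 1722, 1860.4 and 1944 CPM under anti-PD-1, and none of the 12 genes on a list of CD8 T cell identity passed the test. The first principal component of the 6 libraries took 34.5% of the variance and placed all isotype libraries on one side and all anti-PD-1 libraries on the other. Anti-PD-1 library 2 stood apart from the other five on the second component, which took 18.0%. These are bulk libraries, in which fewer cells of a kind and less RNA per cell cannot be told apart.

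Under anti-PD-1, 767 genes rose and 831 fell, together 8.57% of the genes tested, with 4.11% higher and 4.45% lower. Of these, 219 rose and 235 fell by at least 2-fold, and the median log2 fold change over all tested genes was -0.01. Where the average log2 CPM was 3 or more, the large falls included the chemokines Ccl1 and Xcl1, the transcription factor gene Zfp683 (Hobit) and the survival gene Bcl2. The large rises included the protease inhibitors Serpine2 and Serpinb9b, the small GTPase gene Rasd2, the receptor gene Klrg1, the metallothioneins Mt1 and Mt2, the lipid-droplet coat protein Plin2 and the integrin subunit Itgb3. The number of genes passing the test depended on the libraries. It was 823, 1093 and 1193 with isotype library 1, 2 or 3 left out, and 805, 954 and 730 with anti-PD-1 library 1, 2 or 3 left out. No gene that passed with all libraries changed direction under those omissions. With groups that do not overlap, leaving out 1 library could hardly reverse a direction. The 3 libraries of one treatment did not overlap with those of the other for any of the 1598 genes that passed, against 30.3% of all tested genes with groups that did not overlap.

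**Figure D1:**
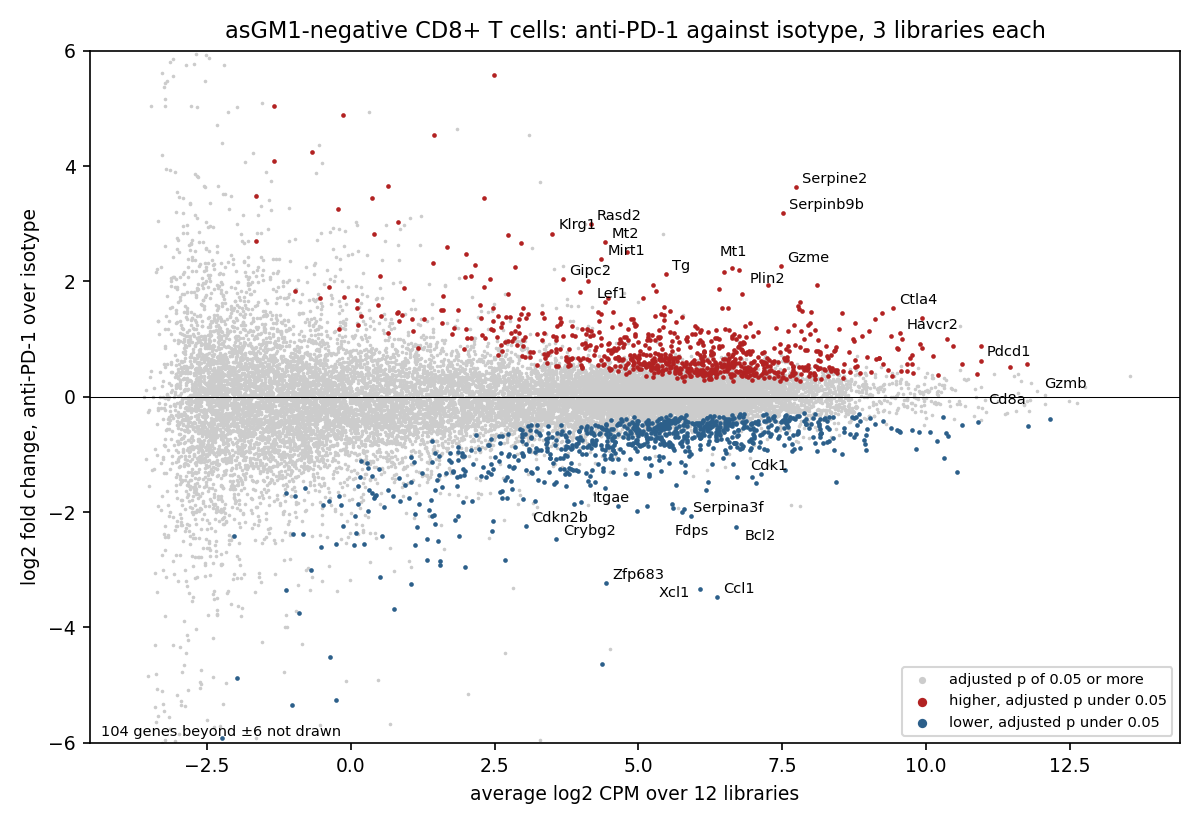
Log2 fold change of anti-PD-1 over isotype in asGM1-negative cells (vertical axis) against average log2 CPM over the 12 libraries (horizontal axis), 1 point per tested gene, with 104 genes beyond ±6 left out. Red points rose (767) and blue points fell (831) at an adjusted p under 0.05; Ccl1 is the lowest labelled point, and Cd8a and Gzmb lie near 0.

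Ccl1 (ENSMUSG00000020702), a chemokine that activated T cells secrete, measured 212, 171 and 169.6 CPM under isotype and 14.1, 20.6 and 15.1 CPM under anti-PD-1. Xcl1, whose product draws in cross-presenting dendritic cells, measured 161, 111 and 140.1 CPM under isotype and 8.59, 15.3 and 17.2 CPM under anti-PD-1. Zfp683, which encodes the residency factor Hobit, measured 22.3, 35.6 and 31.5 CPM under isotype and 2.39, 2.79 and 4.36 CPM under anti-PD-1. In each of these genes the lowest isotype library lay above the highest anti-PD-1 library by a wide margin, and the log2 fold changes were -3.47, -3.32 and -3.23. Bcl2, which guards lymphocytes against mitochondrial cell death, measured 181, 155 and 156 CPM under isotype and 31.7, 36.02 and 34.5 CPM under anti-PD-1. Its replicates were close in both groups (log2 fold change -2.26 ± 0.15 SE, with an edgeR adjusted p of 3.2e-05). Nek6, a kinase that acts in mitosis and that was chosen for mention after its value was seen, fell from 184 ± 8.56 CPM (SD, n = 3) to 72.7 ± 4.32 CPM (SD, n = 3), with edgeR adjusted p = 3.49e-05.

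Among the other large falls were Crybg2 (log2 fold change -2.47), the cell-cycle inhibitor Cdkn2b (-2.24), the serpin Serpina3f (-2.003) and the killer cell lectin-like receptor gene Klra5 (-1.93). Crybg2 overlaps Cd52 on the opposite strand, and whether counting used the strand is not given in the sources used here. Serpina3f and Klra5 belong to families of near-identical genes whose reads the counting could split, so their values are uncertain. Trex1, a cytosolic DNA exonuclease, measured 102, 67.2 and 48.9 CPM under isotype and 19.9, 21.01 and 14.1 CPM under anti-PD-1, without overlap (log2 fold change -1.99 ± 0.56 SE, with an edgeR adjusted p of 0.0482). The Trex1 call rested on every library, since its edgeR adjusted p was 0.171, 0.0875 and 0.057 with isotype library 1, 2 or 3 left out, and 0.132, 0.109 and 0.173 with anti-PD-1 library 1, 2 or 3 left out. Trex1 overlaps Atrip on the same strand, which rose by 0.82 on the log2 scale.

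Serpine2 (ENSMUSG00000026249), a secreted inhibitor of thrombin and related proteases, measured 32.8, 25.7 and 30.9 CPM under isotype and 302, 427 and 381 CPM under anti-PD-1. The anti-PD-1 libraries exceeded every isotype library, 12.4-fold on the means (log2 fold change 3.63 ± 0.32 SE, with an edgeR adjusted p of 0.000181). Serpinb9b, from a family of intracellular inhibitors that includes the granzyme B inhibitor Serpinb9, measured 57.9, 35.7 and 44.1 CPM under isotype and 554, 482 and 219.8 CPM under anti-PD-1. Anti-PD-1 library 3 was the lowest of its group and still lay above all isotype libraries. Itgb3, the beta subunit of vitronectin-binding integrins, measured 45.9, 41.2 and 29.7 CPM under isotype and 189, 173 and 159 CPM under anti-PD-1. The 2 groups lay far apart, and Itgb3 was the gene with the seventh smallest p (log2 fold change 2.16 ± 0.18 SE, with an edgeR adjusted p of 0.000137). Klrg1, a receptor that marks differentiated effector T cells, measured 1.504, 3.58 and 2.34 CPM under isotype and 8.205, 23.6 and 20.96 CPM under anti-PD-1. It rose 7.11-fold from a low level, with anti-PD-1 library 1 below the other two of its group (edgeR adjusted p = 0.00906). Rasd2, a small GTPase, rose 7.97-fold, and Gipc2 rose 4.104-fold. Tg rose 4.38-fold, but it overlaps Sla on the opposite strand, which was far more abundant and rose by 0.42 on the log2 scale. Mirt1 rose 5.26-fold and overlaps the non-coding 4833407H14Rik, which rose by 2.51 on the log2 scale. These largest rises, like Ccl1, Xcl1, Zfp683 and Bcl2 among the falls, passed the test under all 16 alternative settings.

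Genes of cholesterol metabolism fell together. Of 21 tested genes on this list 18 fell and none rose, and all 21 had a log2 fold change below 0. The list median was -0.76 against -0.01 for all genes. This list, like the others, was chosen with earlier results of these data known. Sterol synthesis runs from acetyl-CoA through mevalonate, isoprenoids and squalene to cholesterol, and when sterols are scarce the factor SREBP-2, encoded by Srebf2, turns on its genes. In promoters of such genes SREBP-2 works beside NF-Y, a factor that binds the letters CCAAT. The 250 bases before the start site of 3 genes that fell, from RefSeq on build GRCm38.p6, are shown for this motif, with CCAAT or its reverse complement ATTGG in capitals. The windows are Idi1 at chr13:8885356-8885605 on the plus strand, Cyp51 at chr5:4104698-4104947 on the minus strand and Msmo1 at chr8:64733579-64733828 on the minus strand.
Idi1: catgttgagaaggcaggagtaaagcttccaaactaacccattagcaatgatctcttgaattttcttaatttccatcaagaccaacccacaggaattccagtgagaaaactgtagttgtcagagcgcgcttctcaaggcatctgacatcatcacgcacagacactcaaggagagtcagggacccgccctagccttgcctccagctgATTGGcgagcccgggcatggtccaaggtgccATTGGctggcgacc
Cyp51: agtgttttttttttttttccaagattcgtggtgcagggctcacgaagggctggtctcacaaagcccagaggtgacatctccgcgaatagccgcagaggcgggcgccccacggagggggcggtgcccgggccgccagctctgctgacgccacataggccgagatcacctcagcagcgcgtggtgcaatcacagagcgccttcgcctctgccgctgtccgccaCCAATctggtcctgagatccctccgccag
Msmo1: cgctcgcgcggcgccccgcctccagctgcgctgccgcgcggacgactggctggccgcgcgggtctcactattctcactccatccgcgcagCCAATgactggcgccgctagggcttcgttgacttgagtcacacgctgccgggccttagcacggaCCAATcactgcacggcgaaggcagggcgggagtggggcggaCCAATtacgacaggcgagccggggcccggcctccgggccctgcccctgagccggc
CCAAT on either strand was found in 13 of 17 such windows of this list (76.5%, from 14 genes) against 33.8% of 32851 windows in the table. A form of the sterol regulatory element, TCACNCCAC on either strand, was found in 1 of the 17 and in 1.05% of all. Fdps, Sqle, Fdft1 and Stard4 are among the members with no window in the table.

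Large falls among the enzymes of the pathway were those of Fdps, Cyp51, Idi1 and Sqle. Fdps, which makes farnesyl diphosphate, measured 75.4, 86.6 and 91.7 CPM under isotype and 15.7, 21.98 and 22.9 CPM under anti-PD-1. Idi1, which forms the isoprenoid unit that Fdps extends, measured 30.4, 32.4 and 45.9 CPM under isotype and 11.4, 7.58 and 10.2 CPM under anti-PD-1. In both genes every isotype library exceeded every anti-PD-1 library, 4.19-fold for Fdps and 3.73-fold for Idi1 on the means (log2 fold change -2.07 ± 0.18 SE, with an edgeR adjusted p of 0.000174 for Fdps; edgeR adjusted p = 0.00058 for Idi1). Sqle, the squalene epoxidase, measured 39.8, 42.2 and 62.8 CPM under isotype and 16.7, 20.5 and 18.5 CPM under anti-PD-1, a fall of 2.595-fold (edgeR adjusted p = 0.00152). Cyp51, the lanosterol demethylase, measured 60.6, 64.8 and 103 CPM under isotype and 20.3, 14.2 and 24.6 CPM under anti-PD-1. It fell 3.86-fold with isotype library 3 the highest (edgeR adjusted p = 0.000983), and Cyp51 overlaps Akap9 on the opposite strand. Mvd, Sc5d and Msmo1 fell less, with log2 fold changes of -0.84, -0.58 and -0.84. Msmo1 was the tightest of these, at 37.03, 38.2 and 43.6 against 21.9, 22.4 and 21.9 CPM. Dhcr7 and Nsdhl, enzymes late in the pathway, were among those that did not pass the test. The 9 genes that passed under every alternative setting included Fdps, Cyp51, Idi1, Sqle, Mvd, Msmo1 and Sc5d. The other 9 members that fell (Hmgcs1, Fdft1, Lss, Mvk, Pmvk, Insig1, Srebf2, Stard4 and Acat2) each lost significance under at least 1 alternative. The number of members that fell was 13, 12 and 12 with isotype library 1, 2 or 3 left out, and 9, 12 and 11 with anti-PD-1 library 1, 2 or 3 left out.

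**Figure D2:**
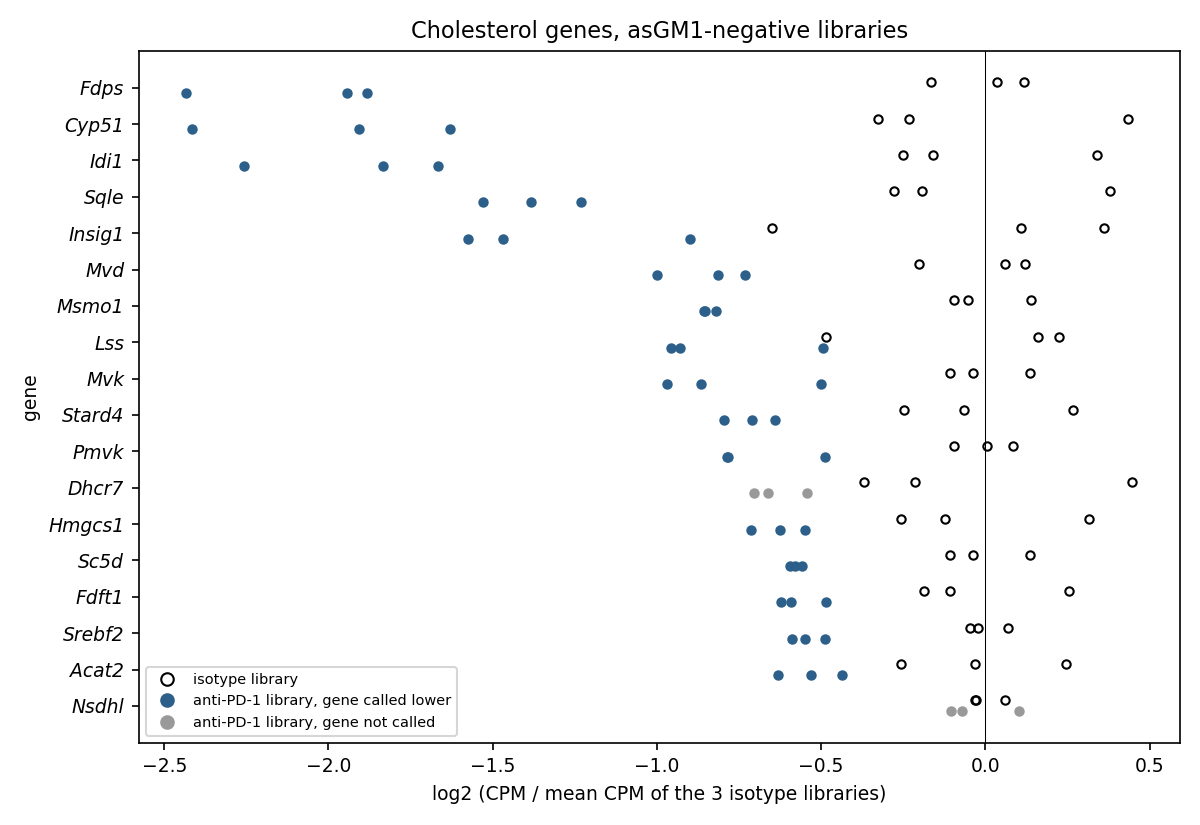
Log2 of each library's CPM over the mean of the 3 isotype libraries (horizontal axis) for 18 of the 21 cholesterol genes (vertical axis), with open circles for isotype and filled circles for anti-PD-1 libraries. Blue marks the 16 of them that fell; Fdps and Cyp51 reach farthest left, and the groups of the grey gene Nsdhl overlap.

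Several genes of sterol export, lipid handling and other metabolism are described singly. Plin2 was among the largest rises, and Slc3a2 is on a list given below. The others were chosen for mention after their values were seen and form no list. Abca1 and Abcg1, which export cholesterol and are known targets of the sterol-sensing LXR receptors, both rose. Abca1 measured 1.71, 0.809 and 1.503 CPM under isotype and 8.205, 6.86 and 4.97 CPM under anti-PD-1, and Abcg1 measured 12.5, 14.6 and 12.2 CPM under isotype and 26.1, 26.2 and 23.3 CPM under anti-PD-1. Neither gene's groups overlapped (log2 fold change 2.31 ± 0.45 SE, with an edgeR adjusted p of 0.00916 for Abca1 and log2 fold change 0.94 ± 0.14 SE, with an edgeR adjusted p of 0.00222 for Abcg1). Plin2, the main coat protein of lipid droplets outside fat tissue, measured 42.6, 41.8 and 35.5 CPM under isotype and 194, 184 and 172 CPM under anti-PD-1. Its 4.59-fold rise had the second smallest p of all tested genes (log2 fold change 2.20 ± 0.13 SE, with an edgeR adjusted p of 1.78e-05). Slc25a20, the mitochondrial carrier of acylcarnitines for fatty acid oxidation, rose 2.02-fold within a narrow spread, from 50.4, 52.1 and 50.3 to 102, 103 and 105 CPM (edgeR adjusted p = 0.000153). Fasn, the fatty acid synthase, fell from 68.9, 60.5 and 61.1 to 23.8, 32.9 and 29.4 CPM (edgeR adjusted p = 0.00164). Fabp5, a fatty acid binding protein, fell from 14.9 ± 3.77 CPM (SD, n = 3) to 5.99 ± 1.53 CPM (SD, n = 3) (edgeR adjusted p = 0.00809). Flcn, a regulator of lysosomal nutrient signalling, and Nmrk1, a kinase of the NAD salvage route, rose 2.03-fold and 2.26-fold, and their isotype and anti-PD-1 libraries lay far apart. Slc3a2, the heavy chain of amino acid transporters at the surface, measured 289, 330.5 and 291 CPM under isotype and 606, 562 and 613 CPM under anti-PD-1 (edgeR adjusted p = 0.000181). It is on a list of amino acid and integrated stress response genes, of which 1 of 20 rose and 1 fell. These were 10% of that list, near the 8.57% of all tested genes, and the list median was 0.03. The member that fell, Psat1, did not pass under every alternative.

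The metallothioneins Mt1 and Mt2, small proteins that bind zinc and copper, rose together. Mt1 measured 42.1, 36.1 and 25.8 CPM under isotype and 202, 191 and 94.7 CPM under anti-PD-1, and Mt2 measured 7.68, 6.503 and 3.94 CPM under isotype and 51.6, 42.97 and 21.2 CPM under anti-PD-1. Anti-PD-1 library 3 was the lowest of its group for both genes and lay above every isotype library (log2 fold change 2.23 ± 0.28 SE, with an edgeR adjusted p of 0.000983 for Mt1 and log2 fold change 2.68 ± 0.35 SE, with an edgeR adjusted p of 0.0012 for Mt2). Metals induce these genes through the factor MTF-1, which binds the metal response element. Because the pair moved together, the 250 bases before their start sites (RefSeq, GRCm38.p6) are printed with the element, TGCACNC or TGCGCNC or the reverse complement of either, in capitals. The Mt1 window is chr8:94178839-94179088 on the plus strand, and the Mt2 window is chr8:94172368-94172617 on the plus strand.
Mt1: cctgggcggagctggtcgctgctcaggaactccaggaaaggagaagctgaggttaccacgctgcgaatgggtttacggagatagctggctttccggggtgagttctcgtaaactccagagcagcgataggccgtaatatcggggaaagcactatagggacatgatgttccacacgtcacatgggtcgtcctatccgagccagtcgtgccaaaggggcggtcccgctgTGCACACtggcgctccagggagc
Mt2: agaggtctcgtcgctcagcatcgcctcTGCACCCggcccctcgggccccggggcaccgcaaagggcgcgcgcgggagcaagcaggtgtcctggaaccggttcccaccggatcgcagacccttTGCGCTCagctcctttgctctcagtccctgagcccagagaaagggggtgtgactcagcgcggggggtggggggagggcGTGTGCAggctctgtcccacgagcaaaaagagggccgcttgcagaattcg
The Mt1 window held 1 match and the Mt2 window held 3, and 21.4% of all windows held at least 1. Bases outside these windows were not searched, so these are not counts of all elements of either promoter.

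Many genes of cell division fell under anti-PD-1. On a list of mitosis genes 22 of 34 fell and 1 rose, with a median log2 fold change of -0.77. On a list of DNA replication genes 17 of 34 fell and none rose, with a median of -0.61. On a list of regulators of the G1 phase 10 of 24 fell and 1 rose, with a median of -0.49. Cdk1, the mitotic cyclin-dependent kinase, measured 109, 115 and 125 CPM under isotype and 58.3, 64.3 and 63.5 CPM under anti-PD-1, a fall of 1.88-fold without overlap (log2 fold change -0.91 ± 0.11 SE, with an edgeR adjusted p of 0.000766). Many genes of this phase share the CHR element, TTTGAA, beside CCAAT boxes, and the Cdk1 window at chr10:69352913-69353162 on the minus strand (RefSeq, GRCm38.p6) shows it, with TTTGAA in capitals.
Cdk1: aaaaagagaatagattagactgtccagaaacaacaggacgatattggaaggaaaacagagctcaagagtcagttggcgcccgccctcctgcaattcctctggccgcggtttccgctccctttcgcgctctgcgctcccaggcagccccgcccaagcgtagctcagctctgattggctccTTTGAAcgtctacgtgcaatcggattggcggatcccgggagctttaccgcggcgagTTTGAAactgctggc
TTTGAA on either strand was found in 11 of 29 windows of the mitosis list (37.9%) against 5252 of all 32851 windows, and CCAAT in 25 of the 29 (86.2%).

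In mitosis, Ube2c, which feeds ubiquitin to the anaphase-promoting complex, measured 95.3, 119.6 and 114 CPM under isotype and 45.8, 53.03 and 47.02 CPM under anti-PD-1. It had the steepest fall on that list (log2 fold change -1.17 ± 0.18 SE, with an edgeR adjusted p of 0.00281). Plk1 and Aurkb, mitotic kinases, fell by 0.98 and 0.71 on the log2 scale, the topoisomerase Top2a fell by 0.94, and the survivin gene Birc5 fell by 0.80. Spc24, a kinetochore subunit, was close to constant within each group at 86.4, 77.4 and 88.6 against 45.7, 44.8 and 45.2 CPM (edgeR adjusted p = 0.00349). Cenpa, the centromere-specific histone, was the single member that rose, from 231, 229 and 236 to 349.6, 322 and 301 CPM (edgeR adjusted p = 0.0054). Mki67, the proliferation marker, measured 250.2, 273 and 229 CPM under isotype and 184, 125 and 131 CPM under anti-PD-1 and did not pass the test (edgeR adjusted p = 0.0734), although its groups did not overlap.

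Among replication genes, Pcna, the sliding clamp of DNA polymerases, measured 343, 305 and 333 CPM under isotype and 210.3, 215 and 209 CPM under anti-PD-1 (log2 fold change -0.63 ± 0.10 SE, with an edgeR adjusted p of 0.00307). Tk1 and Tyms, which supply thymidine nucleotides, fell by 0.90 and 0.85 on the log2 scale. Gins1 and Gins2, subunits of the replicative helicase, fell by 1.07 and 0.80. Stmn1, a microtubule regulator, and Pclaf, a PCNA-binding protein, both chosen after their values were seen, fell by 0.92 and 0.89. In G1, Cdkn2b fell while the pocket protein gene Rbl2, known for holding cells in quiescence, rose by 0.81 (edgeR adjusted p = 0.0136, not under every alternative). For mitosis the number that fell was 25, 19 and 17 with isotype library 1, 2 or 3 left out, and 16, 16 and 14 with anti-PD-1 library 1, 2 or 3 left out. For replication it was 16, 20 and 15 with isotype library 1, 2 or 3 left out, and 15, 12 and 12 with anti-PD-1 library 1, 2 or 3 left out. For G1 it was 4, 8 and 4 with isotype library 1, 2 or 3 left out, and 6, 4 and 2 with anti-PD-1 library 1, 2 or 3 left out. The Rbl2 call ended with isotype library 1 or 2 left out, where no G1 member rose.

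Some glycolysis genes fell as well. On a list of glycolysis and hypoxia genes 9 of 26 fell and none rose, with a median of -0.33. Tpi1, Pgk1, Pgam1 and Ldha, enzymes from triose phosphates to lactate, passed under every alternative setting. Pgk1 measured 859, 859 and 883 CPM under isotype and 579, 599 and 537 CPM under anti-PD-1, and Ldha measured 3909.7, 3487 and 4302 CPM under isotype and 2637, 2818 and 2744 CPM under anti-PD-1. The isotype libraries were the higher ones in both genes, by 1.52-fold and 1.43-fold. The number that fell was 6, 7 and 7 with isotype library 1, 2 or 3 left out, and 8, 6 and 5 with anti-PD-1 library 1, 2 or 3 left out. Nuclear genes of the respiratory chain had smaller differences, with 2 of 28 lower (Ndufa4 and Cox5a) and a median of -0.16. These were 7.14% of the list, below the 8.57% of all tested genes that passed. The number of respiratory chain genes that fell was 0, 1 and 1 with isotype library 1, 2 or 3 left out, and 0, 1 and 0 with anti-PD-1 library 1, 2 or 3 left out. Of the 13 protein genes of the mitochondrial genome 2 fell (mt-Nd1 and mt-Cytb, 15.4%), and all 13 log2 fold changes were below 0. The number of mitochondrial genes that fell was 0, 0 and 3 with isotype library 1, 2 or 3 left out, and 0, 1 and 0 with anti-PD-1 library 1, 2 or 3 left out. The share of counts on mitochondrial genes was 0.487% to 0.782% under isotype and 0.462% to 0.558% under anti-PD-1.

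Some chaperone genes fell. Hsp90aa1 and Hsp90ab1, the cytosolic HSP90 chaperones, fell by 0.79 and 0.68 on the log2 scale, and the mitochondrial chaperonin Hspe1 fell by 0.82. Hsp90aa1 measured 369.7, 377 and 365 CPM under isotype and 190.1, 243 and 207 CPM under anti-PD-1 (edgeR adjusted p = 0.000983), with all anti-PD-1 libraries below the isotype libraries. On the heat shock list 3 of 15 fell and 1 rose (Dnajb4). The number of heat shock genes that fell was 3, 3 and 3 with isotype library 1, 2 or 3 left out, and 3, 5 and 3 with anti-PD-1 library 1, 2 or 3 left out. Those that rose numbered 0, 1 and 0 with isotype library 1, 2 or 3 left out, and 0, 1 and 0 with anti-PD-1 library 1, 2 or 3 left out. The inducible Hspa1a measured 188, 355 and 245 CPM under isotype and 32.2, 151 and 30.9 CPM under anti-PD-1, where anti-PD-1 library 2 stood well above the other two of its group, and it did not pass the test (edgeR adjusted p = 0.138). With anti-PD-1 library 2 left out Hspa1a passed, at an edgeR adjusted p of 0.0343. Hspa1a has a near-identical copy, Hspa1b, so its count is uncertain. The calcium-binding chaperone Calr and the endoplasmic reticulum protein Sdf2l1 fell by 0.58 and 0.61, among 4 of 18 members of an unfolded protein response list that fell, while Atf6 rose. The number of unfolded protein response genes that fell was 2, 4 and 3 with isotype library 1, 2 or 3 left out, and 2, 4 and 2 with anti-PD-1 library 1, 2 or 3 left out. Those that rose numbered 0, 1 and 1 with isotype library 1, 2 or 3 left out, and 0, 1 and 0 with anti-PD-1 library 1, 2 or 3 left out. Heat shock and mitochondrial transcripts can track RNA quality and sorting stress. Their part in the other results was not tested.

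**Figure D3:**
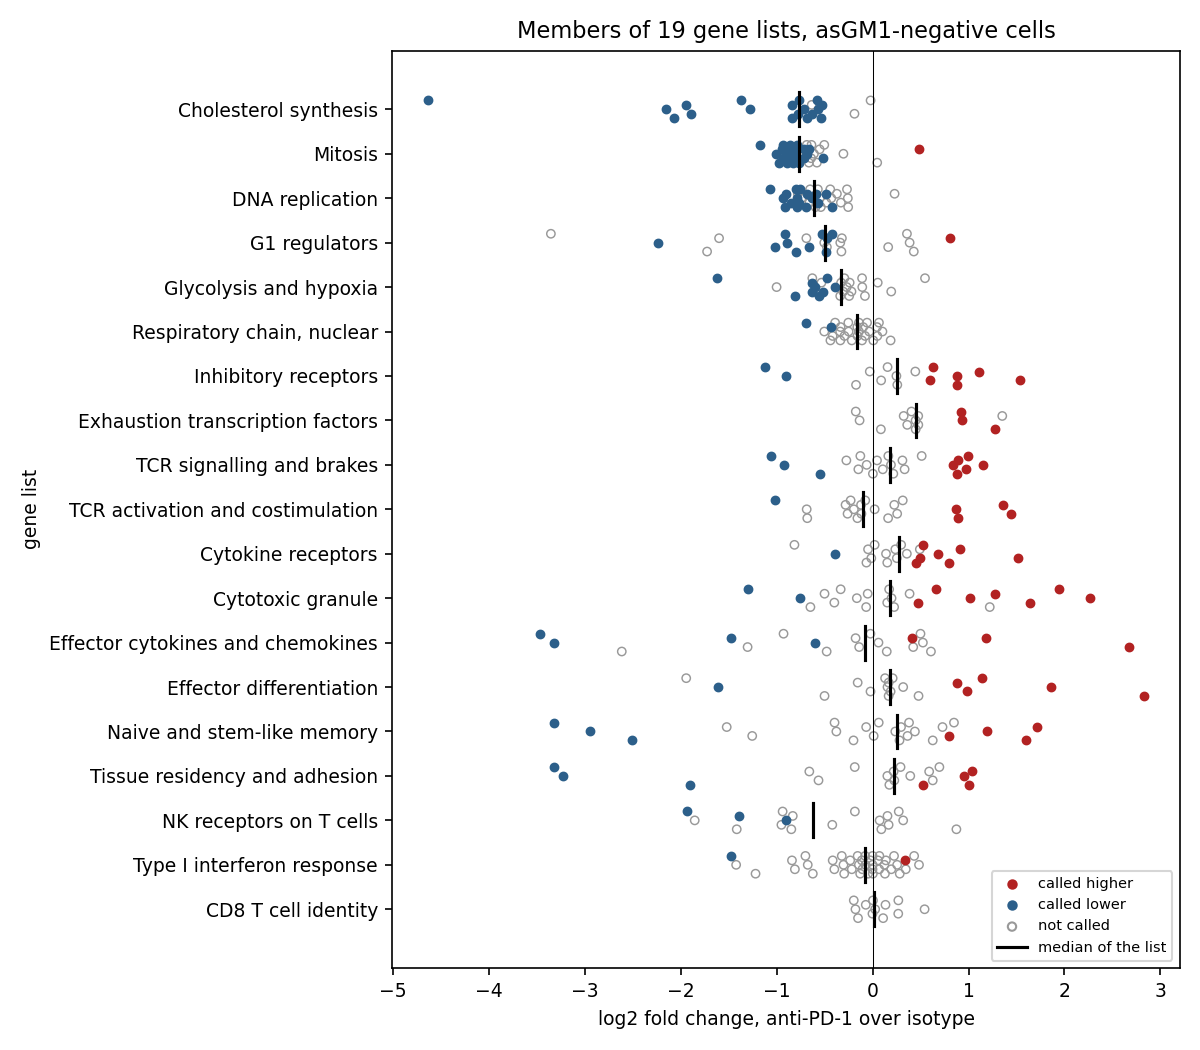
Log2 fold change of anti-PD-1 over isotype (horizontal axis) for each tested member of 19 gene lists (vertical axis), with black bars at list medians. Cholesterol synthesis and mitosis have the lowest medians (-0.76 and -0.77), and CD8 T cell identity has no member that passed the test.

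Several inhibitory receptor genes rose under anti-PD-1. Of 15 on the list 6 rose and 2 fell, with a median of 0.26. Pdcd1, the gene of PD-1 itself, measured 1260.2, 1633 and 1569 CPM under isotype and 2295, 2185 and 2419.6 CPM under anti-PD-1, and every anti-PD-1 library was above every isotype library (log2 fold change 0.63 ± 0.11 SE, with an edgeR adjusted p of 0.00468). Ctla4, which competes with CD28 for its ligands, measured 307, 519.6 and 299.8 CPM under isotype and 1108, 999.9 and 1155 CPM under anti-PD-1. It rose 2.896-fold, with isotype library 2 above the other two of its group (log2 fold change 1.53 ± 0.26 SE, with an edgeR adjusted p of 0.00496). Havcr2, which encodes TIM-3, measured 403, 419 and 499 CPM under isotype and 1054, 785 and 1004 CPM under anti-PD-1. Its groups stood apart by 2.15-fold on the means (log2 fold change 1.11 ± 0.12 SE, with an edgeR adjusted p of 0.000555). Vsir (VISTA) and Cd274 (PD-L1) rose by 0.88 each. Cd274 encodes the ligand of PD-1 and not a receptor like the others, and it is also counted on the interferon gamma response list. Cd244a, the receptor 2B4, fell from 184, 250.1 and 192 to 119, 105 and 109 CPM (edgeR adjusted p = 0.00165). Lag3 measured 59.7, 56.1 and 58.8 CPM under isotype and 59.5, 71.99 and 62.9 CPM under anti-PD-1 and did not pass the test (edgeR adjusted p = 0.46). Tigit rose by 0.59 and Cd101 fell by 1.13, each in fewer than all settings: the edgeR adjusted p of Tigit was 0.126, 0.0177 and 0.106 with isotype library 1, 2 or 3 left out, and 0.13, 0.101 and 0.0512 with anti-PD-1 library 1, 2 or 3 left out. That of Cd101 was 0.0493, 0.0147 and 0.0605 with isotype library 1, 2 or 3 left out, and 0.0656, 0.0319 and 0.0473 with anti-PD-1 library 1, 2 or 3 left out.

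On a list of transcription factors linked to T cell exhaustion 3 of 14 rose and none fell, 21.4% against 8.57% of all tested genes. Nr4a2, a nuclear receptor induced by T cell receptor signalling, measured 89.8, 131 and 119 CPM under isotype and 237, 173 and 235 CPM under anti-PD-1, without overlap (log2 fold change 0.92 ± 0.16 SE, with an edgeR adjusted p of 0.00495). Nr4a1 and Prdm1 rose by 1.28 and 0.93, but unlike Nr4a2 they did not pass under every alternative. Tox, a main factor of the exhausted state, measured 74.98, 79.1 and 97.7 CPM under isotype and 90.7, 66.5 and 71.9 CPM under anti-PD-1 and did not pass the test (edgeR adjusted p = 0.777). The number that rose was 1, 3 and 2 with isotype library 1, 2 or 3 left out, and 1, 2 and 2 with anti-PD-1 library 1, 2 or 3 left out.

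Genes of naive and stem-like memory T cells were split. Of 24 on the list 4 rose (Lef1, Satb1, Bcl6 and Il7r) and 3 fell (Id3, Dapl1 and Xcl1), and all 7 passed under every alternative setting. Lef1, a partner of TCF1 in naive and memory T cells, measured 15.9, 12.7 and 21.4 CPM under isotype and 52.1, 56.3 and 56.4 CPM under anti-PD-1. Its anti-PD-1 libraries were tightly grouped above the isotype libraries (log2 fold change 1.72 ± 0.18 SE, with an edgeR adjusted p of 0.000494). Satb1, a chromatin organiser, measured 104, 116 and 129 CPM under isotype and 268, 246 and 281 CPM under anti-PD-1, and Il7r, the interleukin 7 receptor chain of long-lived T cells, measured 112, 109 and 110.0 CPM under isotype and 212, 200.4 and 164 CPM under anti-PD-1. Both genes separated the treatments. Id3, an inhibitor of E proteins in memory precursors, fell from 8.44, 6.42 and 9.304 to 0.874, 1.82 and 1.55 CPM (log2 fold change -2.51 ± 0.35 SE, with an edgeR adjusted p of 0.00165), and Dapl1 fell from 13.03, 9.06 and 12.8 to 1.48, 1.91 and 1.13 CPM (log2 fold change -2.95 ± 0.32 SE, with an edgeR adjusted p of 0.000555). Tcf7, which encodes TCF1, measured 72.2, 47.1 and 90.4 CPM under isotype and 55.9, 84.3 and 79.02 CPM under anti-PD-1, with overlapping groups (edgeR adjusted p = 0.959).

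Tissue residency genes also differed in direction. Of 19 tested, 4 rose and 3 fell, the latter being Itgae, Xcl1 and Zfp683; Xcl1 is on the memory list too. Itgae, the CD103 chain that binds E-cadherin on epithelium, measured 72.8, 102 and 66.3 CPM under isotype and 14.005, 23.1 and 27.5 CPM under anti-PD-1. All isotype libraries exceeded all anti-PD-1 libraries, 3.74-fold on the means (log2 fold change -1.90 ± 0.26 SE, with an edgeR adjusted p of 0.00165). Itgae overlaps Haspin on the opposite strand, which fell by 0.64. Cdh1, which encodes E-cadherin, measured 52.6, 84.03 and 67.7 CPM under isotype and 21.4, 22.9 and 26.1 CPM under anti-PD-1 (log2 fold change -1.54 ± 0.20 SE, with an edgeR adjusted p of 0.0012). Cxcr6, a homing receptor of tumour-infiltrating T cells, measured 2202, 2443 and 2543 CPM under isotype and 3236, 3471 and 3624 CPM under anti-PD-1 and rose by 0.52, and the integrin chain Itga4 rose by 1.04. The number of residency genes that rose was 2, 3 and 3 with isotype library 1, 2 or 3 left out, and 4, 2 and 2 with anti-PD-1 library 1, 2 or 3 left out. The 3 that fell did so with any library left out.

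In the effector differentiation list 5 of 18 rose and 1 fell. Beside Klrg1, Rora, a nuclear receptor of effector and helper cells, measured 42.04, 53.9 and 49.6 CPM under isotype and 194, 167 and 168 CPM under anti-PD-1. The anti-PD-1 libraries were all higher, by 3.63-fold (log2 fold change 1.86 ± 0.18 SE, with an edgeR adjusted p of 0.000239). Tbx21 (T-bet) and Eomes did not pass the test, at edgeR adjusted p = 0.372 and edgeR adjusted p = 0.566. The number that rose was 2, 3 and 5 with isotype library 1, 2 or 3 left out, and 3, 4 and 3 with anti-PD-1 library 1, 2 or 3 left out.

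The cytotoxic granule genes that changed were mostly serpins and minor granzymes. Of 22 on the list 7 rose and 2 fell. Gzmb, the most used granzyme of killer T cells, measured 5121, 4765 and 3905 CPM under isotype and 4793, 4502 and 3866 CPM under anti-PD-1, and Prf1, the pore-forming perforin, measured 1232, 794 and 1069 CPM under isotype and 1364, 1198 and 986 CPM under anti-PD-1. Neither passed the test, and the groups of both overlapped (edgeR adjusted p = 0.844 and edgeR adjusted p = 0.671). Serpinb9, the inhibitor of granzyme B, measured 232, 251 and 301 CPM under isotype and 727, 621 and 550.4 CPM under anti-PD-1, and its relative Serpinb6b measured 128, 114 and 112 CPM under isotype and 409, 374 and 321 CPM under anti-PD-1. The anti-PD-1 libraries were above the isotype libraries in both (log2 fold change 1.28 ± 0.19 SE, with an edgeR adjusted p of 0.0021 and log2 fold change 1.64 ± 0.15 SE, with an edgeR adjusted p of 0.000221). Gzmd and Gzme rose 3.85-fold and 4.79-fold, and Gzmc fell 2.46-fold. Gzmd, Gzme and their neighbours are close copies of each other, and the Serpinb6 and Serpinb9 genes have close copies too, so these values are uncertain where reads were shared. Tnfsf10, the death ligand TRAIL, fell by 0.76 (edgeR adjusted p = 0.00388). The number that rose was 4, 5 and 6 with isotype library 1, 2 or 3 left out, and 6, 5 and 4 with anti-PD-1 library 1, 2 or 3 left out. The adjusted p of Gzmc was 0.0954, 0.076 and 0.0311 with isotype library 1, 2 or 3 left out, and 0.107, 0.0147 and 0.111 with anti-PD-1 library 1, 2 or 3 left out.

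Effector cytokines and chemokines fell in 4 of 20 cases and rose in 3. Besides Ccl1 and Xcl1, Lta, the secreted lymphotoxin, measured 123, 103 and 113 CPM under isotype and 37.9, 41.1 and 42.4 CPM under anti-PD-1. The groups were far apart and each was narrow (log2 fold change -1.48 ± 0.16 SE, with an edgeR adjusted p of 0.000494). Ifng measured 386, 255 and 333 CPM under isotype and 339.8, 321 and 354 CPM under anti-PD-1 and Tnf measured 66.2, 55.9 and 54.3 CPM under isotype and 48.8, 64.2 and 60.7 CPM under anti-PD-1, both with overlapping groups and without passing the test (edgeR adjusted p = 0.877 and edgeR adjusted p = 0.955). The chemokine Ccl5, the growth factor Areg and the cytokine Il16 rose by 1.18, 2.67 and 0.41, and the number that rose was 1, 0 and 1 with isotype library 1, 2 or 3 left out, and 1, 0 and 0 with anti-PD-1 library 1, 2 or 3 left out.

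Some genes of costimulatory receptors and of intracellular brakes of T cell receptor signalling rose. Icos, a costimulatory receptor of the CD28 family, measured 291, 410.4 and 329.6 CPM under isotype and 950.2, 924 and 939.6 CPM under anti-PD-1. The anti-PD-1 libraries differed little from each other and all exceeded the isotype libraries (log2 fold change 1.45 ± 0.16 SE, with an edgeR adjusted p of 0.00058). Cd28 rose 1.83-fold, and Tnfaip3, which encodes the NF-kappaB inhibitor A20, rose 2.57-fold. They stood with Nfkbid among 4 of 20 activation and costimulation genes that rose, and Myc alone fell. The edgeR adjusted p of Myc was 0.0572, 0.0175 and 0.0721 with isotype library 1, 2 or 3 left out, and 0.096, 0.0587 and 0.0516 with anti-PD-1 library 1, 2 or 3 left out.

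On a list of T cell receptor signalling genes and brakes 6 of 22 rose and 3 fell. Dgka, a diacylglycerol kinase that limits signalling, measured 184, 210.4 and 219 CPM under isotype and 381, 397 and 431 CPM under anti-PD-1, and the GTPase activator Rgs16 measured 722, 813 and 891 CPM under isotype and 1597, 1528 and 1708 CPM under anti-PD-1. In both genes every anti-PD-1 library exceeded every isotype library (log2 fold change 0.98 ± 0.10 SE, with an edgeR adjusted p of 0.000343 and log2 fold change 0.99 ± 0.10 SE, with an edgeR adjusted p of 0.000251). The phosphatase Ptpn22, the ubiquitin ligase Cblb, the adaptor Sh2d2a and the regulator Rgs1 rose by 0.84, 1.15, 0.88 and 0.89. Ptpn6, the phosphatase SHP-1, measured 1299.5, 1597 and 1543 CPM under isotype and 648, 674 and 813 CPM under anti-PD-1 and fell by 1.06 (edgeR adjusted p = 0.000983). The cytokine-signalling inhibitors Cish and Socs1 fell by 0.92 and 0.55. The 6 rises held with any library left out, and 2 or 3 members fell.

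Immediate-early genes rose in 6 of 20 cases and fell in none. Dusp5, a nuclear phosphatase of ERK, measured 223, 348 and 328 CPM under isotype and 683, 746 and 868 CPM under anti-PD-1 (log2 fold change 1.35 ± 0.17 SE, with an edgeR adjusted p of 0.000983) and was the single one of the 6 that passed under every alternative. The number that rose was 2, 6 and 2 with isotype library 1, 2 or 3 left out, and 5, 4 and 1 with anti-PD-1 library 1, 2 or 3 left out. Of 20 cytokine receptor genes 7 rose and 1 fell. Ifngr1, the ligand-binding chain of the interferon gamma receptor, measured 616, 755 and 698 CPM under isotype and 1193, 1340.2 and 1364 CPM under anti-PD-1, with the anti-PD-1 libraries all higher (log2 fold change 0.91 ± 0.11 SE, with an edgeR adjusted p of 0.00067). Il10ra rose by 0.68 (edgeR adjusted p = 0.0109). The number of receptor genes that rose was 4, 4 and 6 with isotype library 1, 2 or 3 left out, and 4, 6 and 5 with anti-PD-1 library 1, 2 or 3 left out. In the survival list Bcl2 fell alone among 18 genes, and the BH3-only genes Bbc3 and Pmaip1 rose by 0.76 and 0.64. Together they made up 16.7% of that list, against 8.57% of all tested genes. The number that rose was 0, 2 and 1 with isotype library 1, 2 or 3 left out, and 1, 1 and 0 with anti-PD-1 library 1, 2 or 3 left out.

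Few interferon genes passed the test. Of 42 genes of the type I interferon response 1 rose (Irf9) and 1 fell (Oasl2), 4.76% of the list against 8.57% of all tested genes, and the median was -0.08. Isg15, a ubiquitin-like protein that type I interferon induces, measured 106, 51.4 and 30.3 CPM under isotype and 41.3, 43.3 and 32.7 CPM under anti-PD-1. Isotype library 1 was above all the others and the groups overlapped (edgeR adjusted p = 0.343). Neither call held throughout: the edgeR adjusted p of Irf9 was 0.0461, 0.0796 and 0.102 with isotype library 1, 2 or 3 left out, and 0.105, 0.0938 and 0.117 with anti-PD-1 library 1, 2 or 3 left out. That of Oasl2 was 0.178, 0.0519 and 0.0229 with isotype library 1, 2 or 3 left out, and 0.104, 0.103 and 0.145 with anti-PD-1 library 1, 2 or 3 left out. Of 24 genes of the interferon gamma response 2 rose and 1 fell (12.5%), and of 19 genes of MHC class I presentation 2 fell (10.5%). Both shares were near the 8.57% of all tested genes. Cd274 was the one interferon gamma response gene that rose under every alternative, and Calr the one class I gene that fell under every alternative. The number of interferon gamma response genes that rose was 1, 1 and 2 with isotype library 1, 2 or 3 left out, and 1, 1 and 1 with anti-PD-1 library 1, 2 or 3 left out. The number of class I genes that fell was 1, 1 and 3 with isotype library 1, 2 or 3 left out, and 1, 2 and 1 with anti-PD-1 library 1, 2 or 3 left out.

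Enzymes of glycosphingolipid metabolism, the route that makes and degrades asGM1, were mixed. Of 20 tested 4 rose and 1 fell. B4galt5, which adds galactose to form lactosylceramide, measured 219, 190.3 and 148 CPM under isotype and 98.001, 107 and 97.6 CPM under anti-PD-1 and fell under every alternative (log2 fold change -0.88 ± 0.17 SE, with an edgeR adjusted p of 0.0103). B4galnt1, which adds the next sugar on the way to asGM1, measured 953, 1038 and 1356 CPM under isotype and 1284, 1269 and 1342 CPM under anti-PD-1 and did not pass the test (edgeR adjusted p = 0.367). Ugcg, the glucosylceramide synthase, the sialyltransferase St6galnac3 and the sialidase Neu1 were among those that rose, by 0.44, 1.05 and 0.68. The number that rose was 0, 2 and 3 with isotype library 1, 2 or 3 left out, and 3, 1 and 0 with anti-PD-1 library 1, 2 or 3 left out.

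Of 18 receptor and adaptor genes shared with natural killer cells none rose and 3 fell (Cd244a, Klra5 and Fcer1g), with a median of -0.63. Those that fell were 16.7% of the list, against 8.57% of all tested genes. The number that fell was 2, 2 and 3 with isotype library 1, 2 or 3 left out, and 2, 4 and 2 with anti-PD-1 library 1, 2 or 3 left out.

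Some markers of other cell types were present and some moved with treatment. Of 9 tested B and plasma cell markers 1 fell (Ighd), 11.1% against 8.57% of all tested genes. The summed list measured 218 to 239.6 CPM under isotype and 80.3 to 155 CPM under anti-PD-1. Most of it was Ighm, which did not pass the test, at 184, 199 and 206 against 58.7, 115 and 108 CPM. Ms4a1 and Fcmr were at 0 in all 6 libraries. Ighd did not pass with anti-PD-1 library 1 or 3 left out (edgeR adjusted p of 0.0591 and 0.0584). Of 16 plasmacytoid dendritic cell markers 1 rose (Runx2) and none fell, 6.25% of the list against 8.57% of all tested genes, 13 had log2 fold changes below 0, and the summed list measured 2068 to 2798 CPM under isotype and 2068 to 2689.7 CPM under anti-PD-1. Most of that sum was Ly6a, at 1047 to 1665 CPM under isotype and 1236 to 1747 CPM under anti-PD-1, and Irf8, at 495 to 649 CPM under isotype and 508 to 570.0 CPM under anti-PD-1, both of which activated T cells also express. The edgeR adjusted p of Runx2 was 0.102, 0.0281 and 0.102 with isotype library 1, 2 or 3 left out, and 0.146, 0.0852 and 0.0628 with anti-PD-1 library 1, 2 or 3 left out. Siglech, its defining surface marker, measured 71.3, 46.2 and 58.2 CPM under isotype and 31.5, 34.8 and 25.1 CPM under anti-PD-1 (edgeR adjusted p = 0.391). The isotype libraries were the higher ones, and the gene did not pass the test.

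Of 17 macrophage and monocyte markers 2 rose (Ccr2 and Itgam), 11.8% against 8.57% of all tested genes. The sum was 888 to 1447 CPM under isotype and 1022 to 1339 CPM under anti-PD-1, most of it Ly6c2, which T cells also express. The edgeR adjusted p of Ccr2 was 0.169, 0.102 and 0.0829 with isotype library 1, 2 or 3 left out, and 0.0399, 0.0978 and 0.181 with anti-PD-1 library 1, 2 or 3 left out. That of Itgam was 0.157, 0.0673 and 0.123 with isotype library 1, 2 or 3 left out, and 0.094, 0.0388 and 0.193 with anti-PD-1 library 1, 2 or 3 left out. C1qa, a macrophage marker, measured 4.702, 5.03 and 4.23 CPM under isotype and 1.95, 3.08 and 3.35 CPM under anti-PD-1 and did not pass the test. Of the 17 markers 9 had log2 fold changes above 0 and 8 below. Among 14 conventional dendritic cell markers Xcr1 rose and Zbtb46 fell, 14.3% of those tested against 8.57% of all tested genes. The sum was 394 to 502 CPM under isotype and 262 to 523 CPM under anti-PD-1. Zbtb46 passed with any library left out, and the edgeR adjusted p of Xcr1 was 0.118, 0.0741 and 0.117 with isotype library 1, 2 or 3 left out, and 0.0287, 0.0939 and 0.154 with anti-PD-1 library 1, 2 or 3 left out. Of 9 neutrophil markers 1 rose (Il1r2) and 2 fell (S100a9 and Csf3r), 33.3% of those tested. Il1r2 and S100a9 passed with any library left out, and the edgeR adjusted p of Csf3r was 0.042, 0.0297 and 0.0672 with isotype library 1, 2 or 3 left out, and 0.0696, 0.0762 and 0.0771 with anti-PD-1 library 1, 2 or 3 left out. The neutrophil sum of 103 to 176 CPM under isotype and 347 to 412 CPM under anti-PD-1 was mostly Il1r2, a decoy receptor for interleukin 1 that T cells can express, at 162, 108 and 94.7 against 346, 405 and 339 CPM. S100a9, an abundant neutrophil protein, measured 1.52, 1.55 and 0.853 CPM under isotype and 0.0504, 0.119 and 0 CPM under anti-PD-1, and Camp and Ngp were at 0 in all 6 libraries.

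Of 8 tumour epithelial markers Cdh1 fell, 12.5% against 8.57% of all tested genes. The sum of 63.3 to 90.9 CPM under isotype and 26.7 to 32.6 CPM under anti-PD-1 was mostly Cdh1. Epcam measured 5.34, 3.37 and 5.08 CPM under isotype and 1.43, 2.45 and 3.01 CPM under anti-PD-1 and did not pass the test. Krt19, Krt7 and Cldn4 were at 0 in all 6 libraries. Of 10 fibroblast and endothelial markers Pecam1, which T cells also express, rose, 10% of those tested against 8.57% of all tested genes. The sum was 18.1 to 33.98 CPM under isotype and 35.5 to 38.97 CPM under anti-PD-1. Of 9 natural killer cell markers 1 rose (Adamts14) and 1 fell (Fcer1g), 22.2% of those tested. The sum of 3160.4 to 3665 CPM under isotype and 3668 to 3925 CPM under anti-PD-1 was mostly Il2rb, which activated T cells carry. The edgeR adjusted p of Adamts14 was 0.0205, 0.128 and 0.12 with isotype library 1, 2 or 3 left out, and 0.14, 0.123 and 0.0529 with anti-PD-1 library 1, 2 or 3 left out. That of Fcer1g was 0.116, 0.12 and 0.0263 with isotype library 1, 2 or 3 left out, and 0.146, 0.0117 and 0.147 with anti-PD-1 library 1, 2 or 3 left out. Ncr1, a defining natural killer cell receptor, measured 0.222, 0 and 0.122 CPM under isotype and 0.0841, 0.136 and 0.138 CPM under anti-PD-1. Of 10 CD4 and regulatory T cell markers Ctla4 rose and Capg fell, 20% of those tested. The sum was 2379 to 2904 CPM under isotype and 2689 to 3038 CPM under anti-PD-1. Most of that sum was Capg, an actin-capping protein, at 1591 to 1868 CPM under isotype and 1102 to 1429 CPM under anti-PD-1, and Ctla4, which activated CD8 T cells also carry. The edgeR adjusted p of Capg was 0.13, 0.102 and 0.0403 with isotype library 1, 2 or 3 left out, and 0.147, 0.0333 and 0.126 with anti-PD-1 library 1, 2 or 3 left out. Cd4 measured 9.42, 11.2 and 12.6 CPM under isotype and 6.61, 15.1 and 9.99 CPM under anti-PD-1 and Foxp3 measured 41.9, 28.5 and 16.5 CPM under isotype and 23.02, 59.3 and 35.97 CPM under anti-PD-1, both with overlapping groups. The part of these cells in the results above was not tested.

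The asGM1-positive cells from the same series were tested in the same fit. Of the 1598 genes that passed in asGM1-negative cells 95.4% had the same sign in asGM1-positive cells, against 70.2% of all 18657 tested genes. Same-numbered libraries of the 2 populations deviated together, so these shares are not from independent libraries. In asGM1-positive cells 1255 genes (6.73%) passed. The 663 genes that passed in both with the same direction made up 41.5% of the first set and 52.8% of the second. The test of the difference itself, the treatment effect in asGM1-negative minus that in asGM1-positive cells, passed for 0 genes in edgeR, with 1329 at an unadjusted p under 0.05. DESeq2 passed 136 genes and limma voom 0. Fdps in asGM1-positive cells measured 96.3, 124 and 125 CPM under isotype and 18.002, 25.2 and 24.5 CPM under anti-PD-1, and Bcl2 measured 179.7, 162 and 190.5 CPM under isotype and 29.4, 43.4 and 44.4 CPM under anti-PD-1. For both genes the anti-PD-1 libraries of either population were low and all isotype libraries were high. Of the cholesterol genes 18 of 21 fell in asGM1-positive cells as well, with a median of -0.90.

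Cell division genes gave different values in the 2 populations. On the mitosis list 1 of 34 genes fell in asGM1-positive cells, with a median of -0.15 beside -0.77 in asGM1-negative cells. On the replication list 1 of 34 fell, with a median of -0.07 beside -0.61. Cdk1 in asGM1-positive cells measured 131, 149.7 and 147 CPM under isotype and 101, 107 and 130.4 CPM under anti-PD-1, so that all its anti-PD-1 libraries lay above those of asGM1-negative cells. The difference between the populations was not past the threshold for any member of either list in edgeR, where the smallest adjusted p was 0.442 for mitosis and 0.438 for replication. With the 6 pairs of libraries that share a number and treatment as a replicate block, no member of either list passed either. The smallest edgeR adjusted p was then 0.0527 for mitosis (Top2a, a difference of -0.88) and 0.061 for replication (Cdc6). In each list all 34 differences were below 0. The unadjusted edgeR p was under 0.05 for 31 of the 34 in each, against 2317 of all 18657 tested genes. In that fit the difference passed for 5 genes (Ifit3, Ifit3b, Pclaf, Zdhhc14 and Cd160). Pclaf fell by 0.89 on the log2 scale in asGM1-negative cells, while it measured 264, 251 and 293 CPM under isotype and 259, 231 and 270.1 CPM under anti-PD-1 in asGM1-positive cells, a difference of -0.80 (edgeR adjusted p = 0.0387). This fit was chosen after seeing the data.

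**Figure D4:**
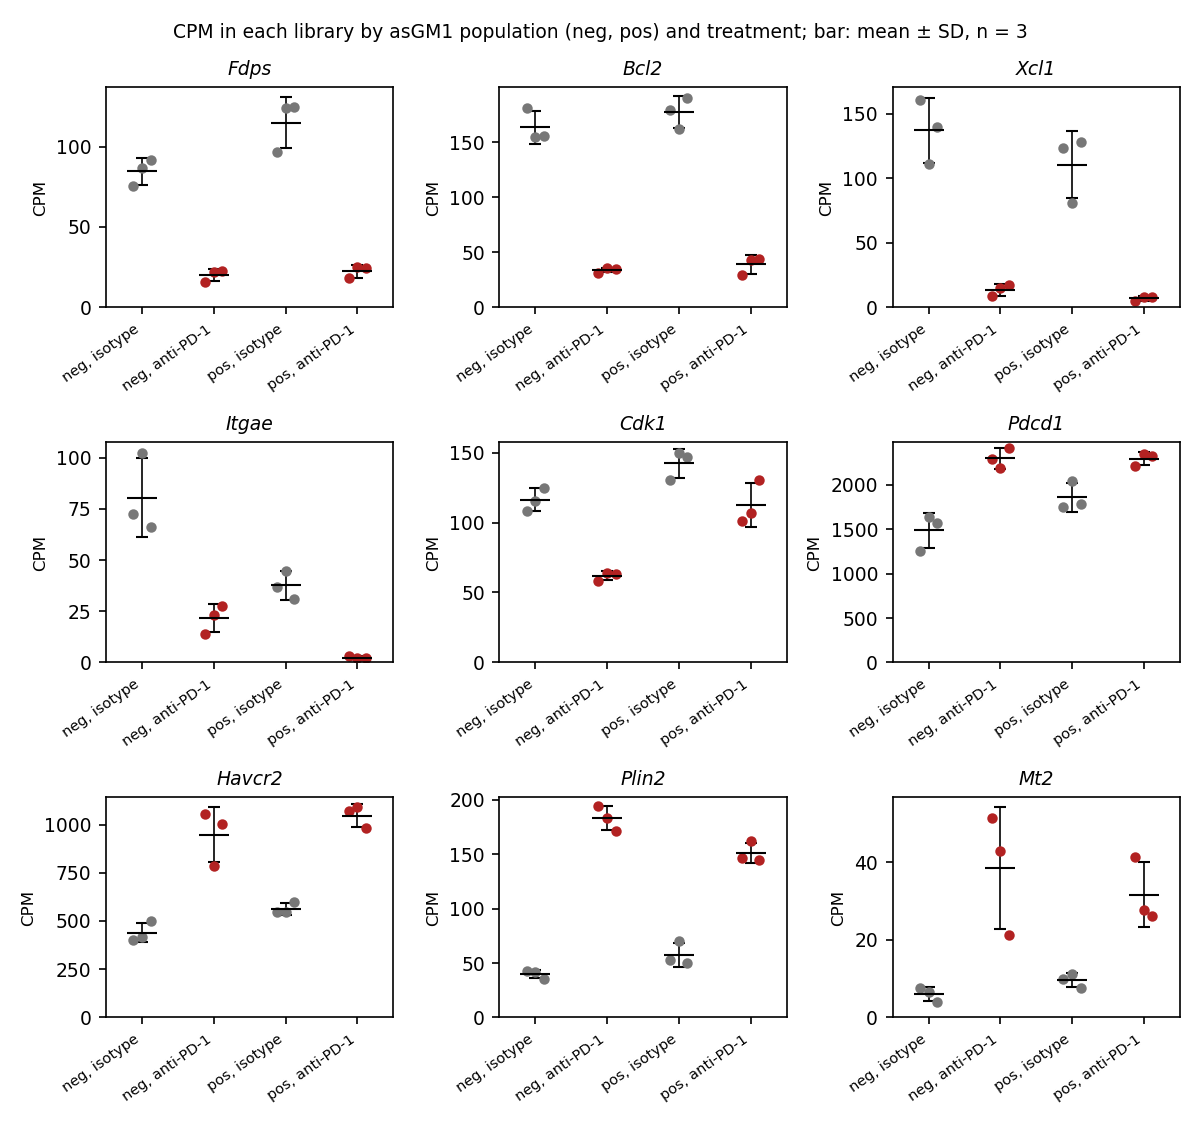
CPM (vertical axis, from 0) of 9 genes in each of the 12 libraries, by asGM1 population (neg, pos) and treatment (horizontal axis), with bars at mean ± SD, n = 3. Fdps, Bcl2 and Xcl1 are low in all anti-PD-1 libraries of both populations, and Cdk1 in asGM1-negative anti-PD-1 libraries lies below every other library.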

How the data were processed

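RNA was sequenced from sorted cells; the labels' protocols name TRIzol extraction, an Illumina TruSeq mRNA kit and a SMARTer low-input kit. The deposited table gives whole-number gene counts, not normalized, for 12 libraries. Per the submitters' processing notes, HISAT2, StringTie and build mm39 were used; versions, read filters, strand use and how counts were made are not given in the sources used here. Of 731 entries on 37 gene lists 726 were found in the table.

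Groups came from the library titles. All 12 libraries entered 1 edgeR 4.0.16 fit in R 4.3.3 (filterByExpr, TMM scaling, a mean per group, quasi-likelihood F test), with Benjamini-Hochberg adjustment over 18657 genes, a threshold of 0.05 and 8 residual degrees of freedom. The comparison was unpaired. SE is the absolute log2 fold change over the square root of F. DESeq2 1.42.0, limma 3.58.1 (voom), other scalings and filters, replicate blocks, the 6 asGM1-negative libraries alone and each library left out were alternatives. Scripts were tested on simulated counts.

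Named genes were the 12 largest rises and falls (average log2 CPM of at least 3, groups without overlap), list members that passed, or up to 3 with the smallest p where none did, and a set of markers. Members and lists were chosen with earlier results of these data known, and 14 further genes after their values were seen. Some genes of the lists are counted but not reported here by name. Same-numbered libraries deviated together between the 2 populations under each treatment (correlations of 0.121 to 0.298), so they were paired in 1 added fit of the difference. A count of 3 is worth 0.0410 to 0.0513 CPM in these 6 libraries. Replicates differed beyond sampling noise (chi-square over its degrees of freedom from 45.4 to 107). Motifs were searched in 250 bases before RefSeq starts on GRCm38.p6, another build than the counts.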

Additional observations from a re-analysis of the deposited data

Results flagged for a closer look

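For 5 genes the anti-PD-1 effect differed between asGM1-negative and asGM1-positive cells in the edgeR fit that took the 6 same-numbered pairs as a block, each at an adjusted p of 0.0387. None passed without the block. For Ifit3 and Ifit3b, interferon-induced genes, the log2 difference was 0.936 and 0.996. In asGM1-negative cells Ifit3 measured 345, 191 and 123 CPM under isotype and 215, 259.5 and 184 CPM under anti-PD-1. In asGM1-positive cells it measured 334, 177 and 121 CPM under isotype and 113, 119 and 96.6 CPM under anti-PD-1. Its log2 fold change was -0.00038 in asGM1-negative and -0.94 in asGM1-positive cells. Neither Ifit3 nor Ifit3b passed the test of treatment in either population. For Pclaf the difference was -0.800. For Cd160, an inhibitory and costimulatory receptor, it was -0.965. Cd160 rose by 1.07 in asGM1-positive cells (edgeR adjusted p = 0.00353). In asGM1-negative cells it did not pass the test (log2 fold change 0.09, edgeR adjusted p = 0.818). Zdhhc14 gave -9.74, a value set by counts of 0 in all asGM1-positive isotype libraries, and no bound. No test for outliers was run, since each group has 3 libraries, although anti-PD-1 library 2 stood apart on the second principal component.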

How the results depend on the processing

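Leaving out 1 library at a time gave 730 to 1193 genes that passed, 350 to 657 higher, 368 to 584 lower and 299 to 392 changed at least 2-fold. Without both anti-PD-1 libraries numbered 2, an alternative chosen after seeing the data, 791 passed (375 higher and 416 lower). DESeq2 passed 2756 genes (1273 higher and 1483 lower) and 136 for the difference between populations, where the replicate block of the 6 pairs passed 5. Numbers did not pair the treatments: same-numbered isotype and anti-PD-1 libraries had correlations of -0.0226, 0.0129 and 0.00898. With the replicate number as a block, 1737 genes passed in 12 libraries and 1068 in the 6 libraries, 534 of them lower. Of 215 named genes that passed, 113 did so under every alternative and 102 lost significance under at least 1, 96 of them with 1 library left out. None of the 215 reversed, but their groups did not overlap, so leaving out 1 library could hardly reverse them. Reversals were of 9 genes that had not passed. Over single-library omissions their log2 fold changes ran from -0.31 to 0.017 for Ccr7, -0.039 to 0.070 for Cd3e, -0.42 to 0.18 for Cd4, -0.011 to 0.39 for Cx3cr1, -0.17 to 0.018 for Gzmb, -0.086 to 0.204 for Ifng, -0.57 to 0.17 for Il2, -0.15 to 0.29 for Tcf7 and -0.11 to 0.087 for Tnf. Cd3e was at -0.00018 with upper-quartile scaling and -0.00021 with the stricter filter, and Cd3e and Tcf7 were at -0.022 and -0.053 without both libraries numbered 2. The cause was not tested, beyond fewer libraries in each omission. The number of libraries, 3 a group, limits the precision.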
